A study of Homo sapiens with 6 samples.

Results

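The windows described here are stretches of 10 kb of human autosomes in which chromatin immunoprecipitation gave more reads than in the surrounding sequence before any hormone was added. A window was taken where the mean of the depth-scaled CDK2 and PARP1 counts at 0 min was at least 2 times the median of that mean over the windows of the same 1 Mb block. Of 263610 autosomal windows with a mean of at least 10 reads over the libraries, 882 (0.335%) met this rule, and they lay in 137 of 2730 blocks. The members were chosen by the CDK2 and PARP1 counts of 0 min, so these counts serve as a description and support no result. The counts of 5 and 30 min entered the choice only through the minimum of 10 reads, which is a mean over all 6 libraries. That minimum also decided which windows entered the block medians.

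The study asked about CDK2 and PARP1 in hormonal gene regulation. Its T47D-MTVL cells derive from the breast cancer line T47D and carry a reporter driven by the promoter of mouse mammary tumour virus, so every group shares this integrated reporter and represents 1 cell line. The groups were CDK2 chromatin immunoprecipitation at 0, 5 and 30 min and PARP1 chromatin immunoprecipitation at 0, 5 and 30 min, with 1 library each. The cells of 5 and 30 min received 10 nM of R5020, a synthetic progestin, and those of 0 min received none, while all cells had been kept in hormone-depleted and then serum-free medium. The libraries held between 40097131 and 63448449 reads, and the median autosomal window held between 134 and 214 reads. An input library was not analysed here. With 1 library for each antibody and time, no difference had a replicate check, every statement compares libraries and not conditions, and the intervals given are exact 95% intervals that cover counting error only.

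CDK2 is a cyclin-dependent kinase best known for driving entry into and passage through DNA replication, and PARP1 is an enzyme that binds DNA breaks and nucleosomes and attaches poly(ADP-ribose) to proteins. In sequencing of this kind, windows that stand high over their neighbours in every library are well known at the edges of centromeres, where satellite repeats are shortened in the assembly, and in segmental duplications, copies of ribosomal RNA genes and nuclear copies of mitochondrial DNA. A window can also stand high because the sequence around it takes few uniquely placed reads, because the cells carry extra copies of it, or because the protein is bound there.

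The ratio to the block median at 0 min had a median of 2.93 over the 882 windows, with quartiles of 2.28 and 4.55 and a highest value of 985.9. In 716 of them (81.2%) the ratio reached 2 in both 0 min libraries, in 77 it did so in the CDK2 library alone, in 78 in the PARP1 library alone, and in 11 in neither library taken by itself. The windows just inside the limit were chr3:85320001-85330000 at 2.001, chr2:132970001-132980000 at 2.002 and chr14:106950001-106960000 at 2.003. Those just outside it were chr6:58390001-58400000 at 1.99976, chr7:87250001-87260000 at 1.99868 and chr9:75840001-75850000 at 1.99796. The distribution therefore had no gap at the limit, and 303 of the 882 windows lay between 2 and 2.5.

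Many windows lay in low surroundings. The median level of the 882 windows at 0 min was 6.04 CPM (the window's count scaled to the library total), against 3.35 CPM for all autosomal windows, while their blocks had a median of 1.83 CPM. For 736 windows (83.4%) the block median lay under the autosomal median. Set against all autosomes and not against the block, 383 windows (43.4%) had at least 2 times the autosomal median at 0 min, 298 lay between 1 and 2 times it, and 201 lay at or under it. Set against the median of the 20 compared windows on each side, 451 members (51.1%) reached 2 times at 0 min and the others did not. The members were nevertheless well covered, with a median of 321.7 reads per window and library on average, against 179.2 reads over all autosomal windows.

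The fullest blocks show both kinds of surroundings. On chromosome 7 between 76000001 and 77000000, 27 of 87 windows were members with a median of 4.94 CPM, against 0.523 CPM for the other windows of the block. The neighbouring blocks had medians of 3.73 and 5.34 CPM, so there the members had the level of their wider surroundings and the rest of the block was low. On chromosome 3 between 84000001 and 85000000, 35 of 100 windows were members with a median of 8.66 CPM, against 2.84 CPM for the others and 2.90 and 5.03 CPM in the neighbouring blocks. Here the members stood above the wider surroundings as well. On chromosome 19 between 43000001 and 44000000, 31 of 89 windows were members at 2.32 CPM, against 0.617 for the others and 2.22 and 2.45 in the neighbouring blocks.

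The windows were gathered rather than scattered. They formed 319 runs of adjacent windows, of which 179 held 1 window, and the 86 runs of 3 or more windows held 595 members (67.5%). Only 44 blocks held 1 member, while the 31 blocks with 10 or more held 557 (63.2%), and the 10 fullest blocks held 258 (29.3%). Windows of 1 run or block share their surroundings and are not independent. The longest run covered chr17:20000001-20220000 with 22 windows and a median ratio of 3.77 at 0 min. It was followed by chr3:84650001-84860000 with 21 windows and 2.65, and by chr4:9800001-10000000 with 20 windows and 4.68.

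Much of the group lay beside the long stretches of each chromosome in which no library had a read. There were 24 such stretches of at least 100 windows on the autosomes, at places where hg19 is known to hold mostly gaps at centromeres and heterochromatin, and each of the 24 had a member within 2 Mb. Within that distance lay 329 members (37.3%), against 2.54% of all autosomal windows compared. Within 100 kb lay 86 members (9.75%), against 0.141% of all windows. Of the 29 compared windows directly adjacent to a stretch, 12 were members. Another 37 members (4.195%, against 1.31% of all windows) lay within 1 Mb of a chromosome end and not near a stretch. The remaining 516 were interior, of which 380 belonged to 50 runs of 3 or more windows and 136 were isolated, in runs of 1 or 2 windows.

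**Figure D1:**
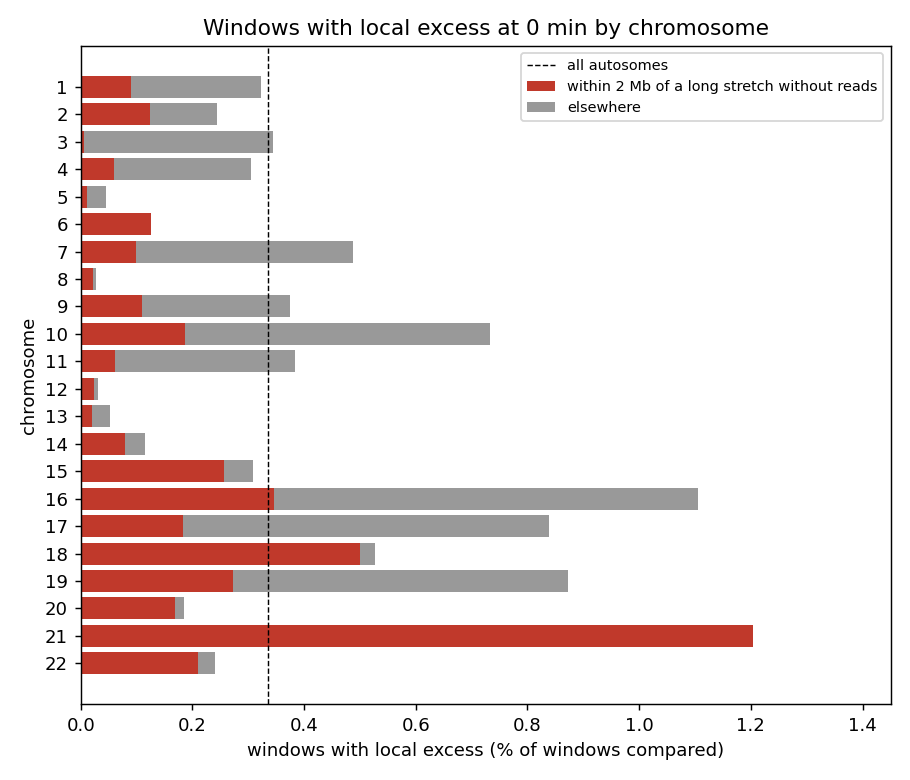
Share of compared windows with local excess at 0 min for each autosome, in percent, split by whether they lay within 2 Mb of a stretch of at least 100 windows without reads; the dashed line is the share over all autosomes. Chromosomes 21 (1.20%) and 16 (1.10%) had the highest shares and chromosomes 8 (0.0284%) and 12 (0.0307%) the lowest.

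The share of windows in local excess differed widely between chromosomes. Chromosome 21 had 42 members, all near a stretch without reads, which made 1.20% of its compared windows. Next came chromosome 16 with 83 members (1.10%), chromosome 19 with 48 (0.872%), chromosome 17 with 64 (0.839%) and chromosome 10 with 94 (0.734%). Chromosomes 8 and 12 had 4 members each, chromosome 13 had 5 (0.0525%) and chromosome 5 had 8 (0.0457%). On chromosomes 16, 17, 19 and 10 most members lay away from the stretches, as the plot of shares by chromosome shows.

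The highest windows were few and stood far above their block medians. At chr6:58770001-58780000, beside a stretch without reads, CDK2 gave 30101, 33474 and 24347 reads at 0, 5 and 30 min and PARP1 gave 36589, 37715 and 43234. At chr1:121480001-121490000, which borders the longest such stretch, CDK2 gave 33458, 39130 and 30946 reads and PARP1 gave 40133, 46827 and 51747. These windows stood 985.9 and 624.1 times over their block medians at 0 min. Scaled for depth, the level of the first lay between 579.2 and 667.3 CPM in CDK2 and between 644.7 and 681.4 CPM in PARP1, and that of the second between 677.1 and 771.8 CPM in CDK2 and between 719.6 and 815.6 CPM in PARP1. At chr1:560001-570000, near the end of the short arm, CDK2 gave 38577, 69604 and 38315 reads and PARP1 gave 7561, 8954 and 7886. This window stood 327.1 times over its block median, and it is the only one of the 3 in which the CDK2 libraries were far above the PARP1 libraries.

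Below these, chr2:92290001-92300000 stood at 114.7 times its block median, chr19:27730001-27740000 at 97.06, chr18:100001-110000 at 95.94, chr18:18510001-18520000 at 68.75, chr10:42380001-42390000 at 58.15 and chr5:134260001-134270000 at 55.06. Among the 20 windows of highest ratio, taken at least 100 kb apart, 14 lay near a stretch without reads, 2 near a chromosome end, 2 in interior runs and 2 were isolated interior windows. The lowest of the 20 was chr1:142530001-142540000 at 21.09. All 20 had a ratio of at least 2 in each of the 4 libraries after R5020. Of the 78 members with a ratio of at least 10 at 0 min, 63 lay near a stretch without reads.

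Together the 882 windows held a small and nearly constant share of each library. In the CDK2 libraries they took 1.06%, 1.08% and 1.12% of all reads at 0, 5 and 30 min, and in the PARP1 libraries 0.950%, 0.999% and 1.01%. Without the 3 highest windows the shares were 0.833%, 0.830% and 0.884% for CDK2 and 0.799%, 0.839% and 0.849% for PARP1. So 3 of 882 windows held between 0.151% and 0.246% of all reads in a library.

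Most of the windows were again in local excess after hormone. The ratio within each library to the median of its own block needs no scaling between libraries, and it has a median of 1.0 over all windows by construction. Over the members its median was 3.06 and 2.91 in CDK2 at 5 and 30 min, and 2.90 and 2.91 in PARP1 at 5 and 30 min. The ratio was at least 2 in 666 members (75.5%) in CDK2 at 5 min, against 6.23% of all autosomal windows, and in 658 (74.6%) in CDK2 at 30 min, against 3.53%. For PARP1 it was at least 2 in 700 members (79.4%) at 5 min, against 0.432% of all windows, and in 742 (84.1%) at 30 min, against 0.376%. In all 4 later libraries together 477 members (54.1%) had a ratio of at least 2, against 0.192% of all windows. These 477 were most of the 507 autosomal windows that did. No interval is given for this share, because windows of 1 run or block are not independent.

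The members that did not reach 2 again were mostly those near the limit. Of the 303 members with a ratio between 2 and 2.5 at 0 min, 63 (20.8%) reached 2 in all 4 later libraries, and 30 reached it in none. The count in all 4 was 71 of 158 (44.9%) for ratios between 2.5 and 3, 154 of 224 (68.8%) between 3 and 5, 111 of 119 (93.3%) between 5 and 10, and 78 of 78 at 10 or more. In total 31 members reached 2 in none of the 4 later libraries. Members under their block median were more frequent in the CDK2 libraries, with 44 at 5 min and 29 at 30 min, than in the PARP1 libraries, with 6 at 5 min and 2 at 30 min. A total of 6 members had 0 reads in CDK2 at 5 min and 1 had 0 reads in CDK2 at 30 min, while no member had 0 reads in a PARP1 library. The matching shares over all autosomal windows are not given here. Over all of them a ratio of at least 2 was likewise more frequent in CDK2 at 5 and 30 min (6.23% and 3.53%) than in PARP1 (0.432% and 0.376%). The CDK2 library of 5 min was also the one in which the most windows of the whole genome reached 2, and without it 553 members (62.7%) reached 2 in the other 3 later libraries, against 0.234% of all windows.

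**Figure D2:**
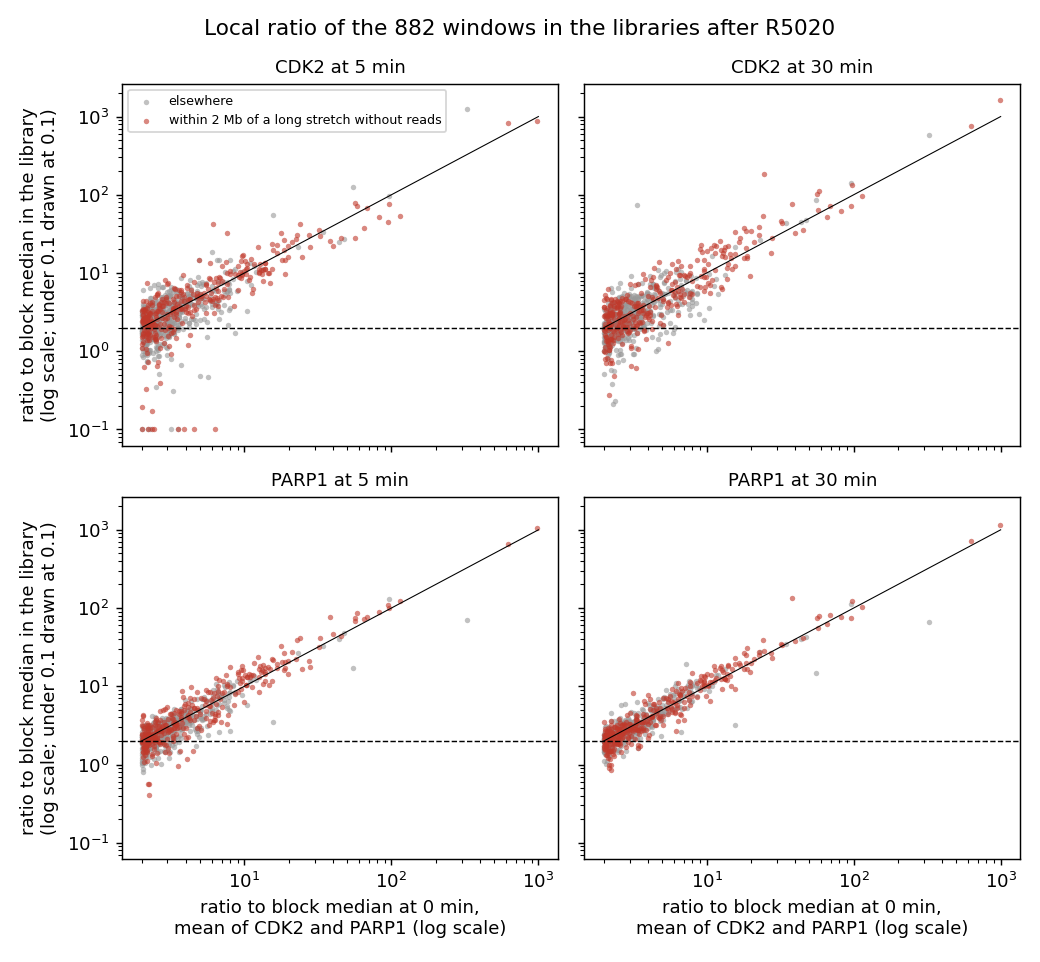
Ratio of each of the 882 windows to its block median in the 4 libraries after R5020 (vertical, log scale) against the ratio at 0 min averaged over CDK2 and PARP1 (horizontal, log scale); the solid line marks equal ratios, the dashed line a ratio of 2, and red points lie within 2 Mb of a long stretch without reads. Points scatter along the line in every library, more widely in CDK2 than in PARP1, and those over 10 at 0 min all stay over 2.

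The order of the windows was kept more closely in PARP1 than in CDK2. Across members the Spearman correlation of the ratio between 30 and 5 min was 0.857 for PARP1 and 0.611 for CDK2, against 0.455 and 0.133 over all autosomal windows. These are descriptions over windows that share libraries, runs and blocks. Of the 100 members highest at 0 min, 84 and 75 were among the 100 highest in CDK2 at 5 and 30 min, and 86 and 88 in PARP1 at 5 and 30 min. Among the 200 members highest at 0 min, the lowest mean later ratio was at chr9:69830001-69840000, where CDK2 gave 97, 14 and 53 reads at 0, 5 and 30 min and PARP1 gave 80, 58 and 105. Of its 6 libraries the CDK2 library of 5 min alone lay under the block median, with a ratio of 0.467.

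The number of members that reached 2 again is given by position. The matching shares over all compared windows of each class were not counted, so the classes cannot be set against a background. All 4 later libraries reached 2 in 210 of the 329 members near a stretch without reads (63.8%), in 23 of the 37 near a chromosome end (62.2%), in 204 of the 380 in interior runs (53.7%) and in 40 of the 136 isolated interior windows (29.4%). The same order held for the median ratio at 0 min, which was 3.49, 3.26, 2.95 and 2.22 in these classes. In the longest run, on chromosome 17, the median ratio was 3.80, 4.46 and 3.91 in CDK2 at 0, 5 and 30 min and 3.81, 3.70 and 3.12 in PARP1, and 19 of its 22 windows reached 2 in all 4 later libraries. In the run on chromosome 3 the medians were 2.48, 2.00 and 1.76 in CDK2 and 2.71, 2.78 and 2.51 in PARP1, and 2 of its 21 windows did so. The chromosome 3 run thus lay at or under 2 in both later CDK2 libraries and over it in both later PARP1 libraries.

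The isolated interior windows were selected on being high at 0 min without a longer run of such windows, so their narrow shape at 0 min follows from the choice. Their median ratio at 0 min was 2.27 in CDK2 and 2.27 in PARP1, while the windows 10 kb to the left had 1.495 and 1.60 and those 10 kb to the right 1.51 and 1.63. At 150 kb to the right the medians were 1.04 and 0.995. After hormone the central medians were 2.28 and 2.20 in CDK2 at 5 and 30 min and 2.15 and 2.18 in PARP1. The windows 10 kb to the right had 1.40 and 1.38 in CDK2 and 1.59 and 1.47 in PARP1 at these times. The centre thus stood above its flank in the later libraries, which entered the choice only through the minimum of reads.

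**Figure D3:**
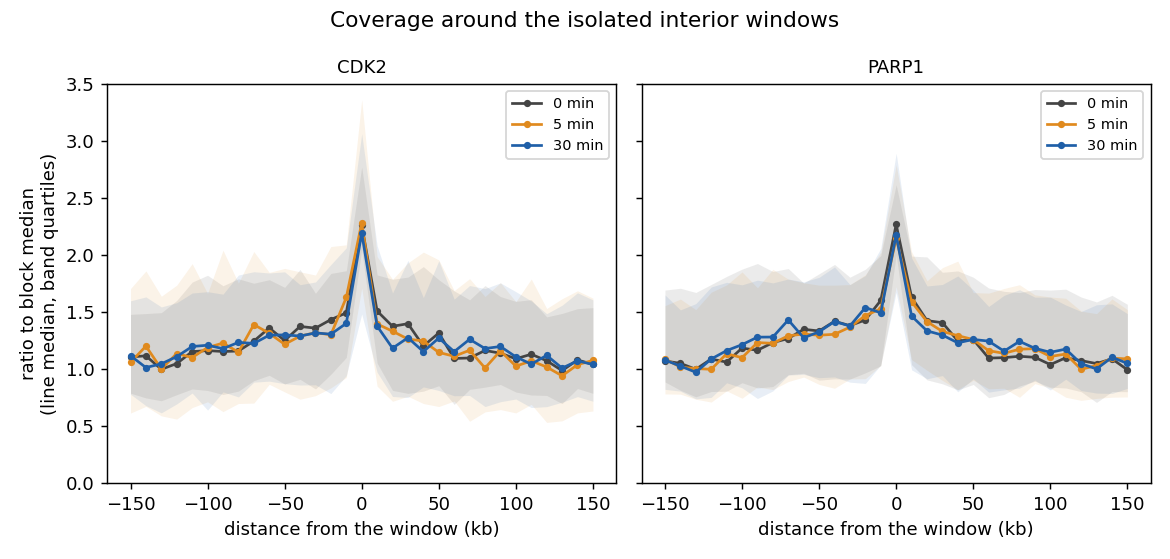
Median ratio to the block median (line) with quartiles (band) in the compared windows up to 150 kb on each side of the 136 isolated interior windows, for CDK2 and PARP1 at 0, 5 and 30 min. The central point is near 2.2 in all 6 libraries and was chosen high at 0 min, and the flanks come down to about 1 at 150 kb.

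Only 3 of the 136 isolated interior windows had a ratio of at least 10 at 0 min, against 63 of the 329 members near a stretch without reads. At chr4:68260001-68270000, CDK2 gave 2852, 3298 and 2446 reads at 0, 5 and 30 min and PARP1 gave 3620, 3784 and 4537, with ratios to the block median between 21.6 and 27.5 in the 6 libraries. At chr1:5730001-5740000, CDK2 gave 442, 656 and 272 reads and PARP1 gave 454, 492 and 482, with a ratio of 4.29 at 0 min and ratios of 8.15 and 2.94 in CDK2 at 5 and 30 min. The first of these kept its ratio in every library, while the second varied between the CDK2 libraries.

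The question of the design, whether binding changed between 5 and 30 min of R5020, was taken to the members with the depth-scaled ratio of 30 to 5 min. A call required a ratio of 2 or more, or of 0.5 or less. It also required that the exact binomial test of the counts (two-sided), adjusted by Benjamini-Hochberg over all 278395 compared windows, gave less than 0.05. In CDK2, 102 members (11.6%) were called higher at 30 min, against 17.9% of all autosomal windows, and 76 (8.62%) lower, against 14.6%. In PARP1, 10 members (1.13%) were called higher, against 1.07%, and 5 (0.567%) lower, against 0.659%. The members' shares were thus near or under the background in each direction. Members held a median of 321.7 reads on average, against 179.2 over all autosomal windows, so these shares do not compare windows of like depth. Both antibodies called 3 members higher (0.340%, against 0.218% of all autosomal windows) and 1 lower (0.113%, against 0.134%), and 3 were called in opposite directions (0.340%, against 0.42%). The median depth-scaled ratio was 1.04 in CDK2, against 1.02 over all autosomal windows, and 1.01 in PARP1, against 1.00.

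Neighbouring windows differed between 2 libraries by far more than counting error allows. The dispersion, the variance of the ratio around its local value over that of independent reads, was 33.951 for CDK2 and 6.623 for PARP1 between 30 and 5 min. After the counts were divided by it, 1 member was called higher and 1 lower in CDK2, each 0.000379% of all autosomal windows, and these were the only calls on the autosomes. A window of median depth, at 179.2 reads on average, keeps few counts after this division in CDK2, so only deep windows could be called. The members were chosen as high at 0 min, so that both calls fell on members is no result about them. In PARP1 no member was called after division, against 1 autosomal window in all (0.000379%) that was higher and 0 that were lower. By the undivided exact binomial rule these PARP1 counts were the 10 and 5 given above.

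The window called higher in CDK2 was chr21:9820001-9830000, with 2096, 1640 and 3157 CDK2 reads and 3465, 5294 and 10364 PARP1 reads at 0, 5 and 30 min. Its CDK2 ratio of 30 to 5 min was 2.77 (interval 2.61 to 2.95, or 1.94 to 4.01 with the dispersion). The window called lower was chr8:43090001-43100000, with 1140, 3341 and 421 CDK2 reads and 1093, 783 and 995 PARP1 reads. Its CDK2 ratio was 0.182 (interval 0.164 to 0.201, or 0.0919 to 0.329 with the dispersion), and its CDK2 reads at 5 min stood above all its other 5 libraries.

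Among the calls made without the dispersion were windows in which a CDK2 library had almost no reads. At chr2:90100001-90110000, CDK2 gave 49, 0 and 130 reads and PARP1 gave 114, 107 and 85 at 0, 5 and 30 min. The exact interval of the CDK2 ratio of 30 to 5 min began at 50.1, and with the dispersion at 0.889. At chr18:14970001-14980000, CDK2 gave 52, 0 and 111 reads and PARP1 gave 71, 67 and 131, with an interval of the CDK2 ratio that began at 42.6, and with the dispersion at 0.690. In the other direction, chr1:148940001-148950000 gave 39, 105 and 5 CDK2 reads and 54, 47 and 43 PARP1 reads, a CDK2 ratio of 0.0686 (interval 0.0218 to 0.165). At chr2:132490001-132500000, CDK2 gave 49, 82 and 4 reads and PARP1 gave 77, 30 and 50, a CDK2 ratio of 0.0703 (interval 0.0187 to 0.187). At chr19:43110001-43120000, CDK2 gave 90, 162 and 8 reads and PARP1 gave 105, 134 and 112, a CDK2 ratio of 0.0712 (interval 0.0302 to 0.144). The CDK2 libraries were far apart in each of these windows, and no interval excluded 1 once the dispersion was taken in.

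The PARP1 calls with intervals farthest from 1 were on thin windows. At chr9:45370001-45380000, PARP1 gave 18, 4 and 31 reads and CDK2 gave 17, 2 and 11, a PARP1 ratio of 7.14 (interval 2.53 to 27.9) for 30 over 5 min. At chr6:58000001-58010000, PARP1 gave 144, 80 and 260 reads and CDK2 gave 134, 46 and 44, a PARP1 ratio of 2.996 (interval 2.32 to 3.90). At chr18:15390001-15400000, PARP1 gave 64, 74 and 28 reads and CDK2 gave 46, 41 and 14, a PARP1 ratio of 0.349 (interval 0.217 to 0.546). Over both directions, 10 of the 15 called members lay near a stretch without reads, and the called members held a median of 72.3 reads on average, against 321.7 for all members.

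In a set of well covered windows PARP1 was highest at 30 min without reaching that call. The depth-scaled PARP1 level at 30 min was at least 1.5 times that of 5 min and that of 0 min in 12 members (1.36%), against 0.825% of all autosomal windows. With at least 300 PARP1 reads at 0 min there were 6 such members (0.680%), against 0.00721% of all autosomal windows, which is 19 windows. This limit uses a library of the rule. The median PARP1 count at 0 min was 336.5 in members and 188 over all autosomal windows, so most of the latter could not pass it. These shares therefore do not compare windows of like depth. The 0 min level enters this choice, and the set was chosen after its values had been seen, so the values are a description.

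The highest of the 6 was chr21:9820001-9830000, whose PARP1 ratio of 30 to 5 min was 1.81 (interval 1.75 to 1.87, or 1.66 to 1.97 with the dispersion). This window is known to hold sequence of the ribosomal RNA precursor, and its ratio to the block median in PARP1 was 46.2, 76.7 and 134.6 at 0, 5 and 30 min. At chr1:91850001-91860000, PARP1 gave 1051, 1430 and 2844 reads and CDK2 gave 790, 811 and 820, a PARP1 ratio of 1.83 (interval 1.72 to 1.96). At chr16:33960001-33970000, PARP1 gave 1257, 1450 and 2407 reads and CDK2 gave 916, 759 and 1024, a PARP1 ratio of 1.53 (interval 1.43 to 1.64). In each of these 3 windows the PARP1 reads were lowest at 0 min and highest at 30 min.

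At chr1:156180001-156190000, PARP1 gave 872, 1197 and 1954 reads and CDK2 gave 452, 509 and 642. At chr11:85190001-85200000, PARP1 gave 705, 690 and 1428 reads and CDK2 gave 421, 188 and 522. At chr20:26180001-26190000, PARP1 gave 385, 432 and 784 reads and CDK2 gave 212, 89 and 219. After scaling for depth, CDK2 was higher at 30 than at 5 min in all 6 windows, but with the dispersion the interval of that ratio took in 1 at chr1:91850001-91860000 (0.793 to 2.68), chr1:156180001-156190000 (0.874 to 3.85) and chr20:26180001-26190000 (0.740 to 24.9). Whether copies of 1 repeat family join these windows was not tested.

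**Figure D4:**
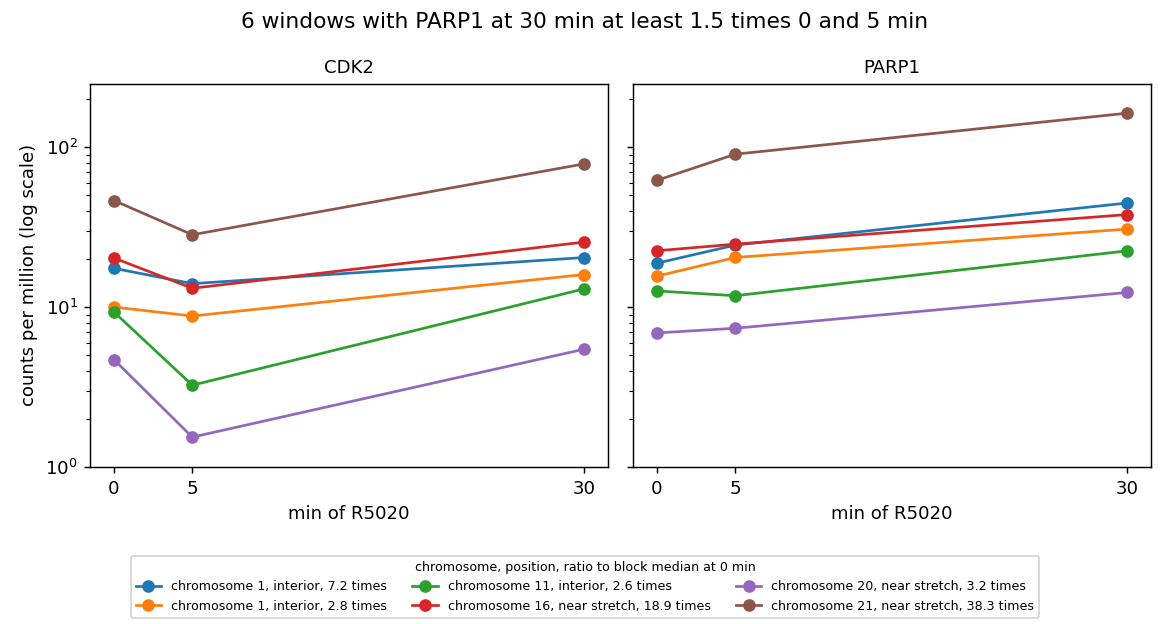
Level in CPM (log scale) against minutes of R5020 for CDK2 and PARP1 in the 6 windows where PARP1 at 30 min was at least 1.5 times both earlier times and PARP1 at 0 min had at least 300 reads; each line is 1 window with 1 library per point. PARP1 is highest at 30 min in every line, as the choice requires. CDK2 is lowest at 5 min in every line, but its 0 min library belongs to the rule, so this is a description.

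The antibodies were compared at the same time of treatment as well. At 5 min CDK2 was called higher than PARP1 in 50 members (5.67%), against 7.63% of all autosomal windows, and lower in 80 (9.07%), against 16.5%. At 30 min CDK2 was called higher in 28 members (3.17%), against 3.57%, and lower in 55 (6.24%), against 9.77%. The members' shares were again under the background, which here too is not of like depth. The median depth-scaled ratio of CDK2 to PARP1 was 0.931 at 5 min and 0.979 at 30 min, against 0.955 and 0.967 over all autosomal windows. Members called higher at both times numbered 12 (1.36%, against 0.319% of all autosomal windows), those called lower at both times 15 (1.70%, against 1.71%), and 5 were called in opposite directions (0.567%, against 1.86%).

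After division by the dispersion, which was 29.824 at 5 min and 14.974 at 30 min, the calls that remained on the autosomes were all members. A window of median depth, at 179.2 reads on average, keeps few counts after this division, so only deep windows could be called. The members were chosen as high at 0 min, so that the calls fell on members is no result about them. At 5 min 6 windows were higher in CDK2 (0.00228% of all autosomal windows) and 1 was lower (0.000379%), and at 30 min 6 were higher (0.00228%) and 2 lower (0.000759%). The windows higher at both times were chr1:560001-570000, chr1:570001-580000, chr5:79940001-79950000, chr5:134250001-134260000 and chr5:134260001-134270000, joined by chr8:43090001-43100000 at 5 min and by chr5:99380001-99390000 at 30 min. The window lower at both times was chr21:9820001-9830000, with a CDK2 to PARP1 ratio of 0.314 at 5 min and 0.482 at 30 min, joined by chr1:91850001-91860000 at 30 min with 0.456.

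In 9 members (1.02%) the CDK2 level was at least 2 times the PARP1 level at 0, 5 and 30 min alike, against 0.0167% of all autosomal windows, which is 44 windows. It was at most 0.5 times at all 3 times in 0 members. For that direction the share over all autosomal windows was not counted, so the 0 cannot be set against a background. The 0 min libraries enter these counts too. Part of the set is known to hold nuclear copies of mitochondrial DNA, among them the windows at chr1:560001-570000 and chr5:134260001-134270000. The mitochondrial chromosome was not analysed here, and the share of these reads that came from it was not tested.

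At chr5:134260001-134270000, CDK2 gave 16339, 27840 and 16031 reads at 0, 5 and 30 min and PARP1 gave 3691, 4461 and 3994. The depth-scaled ratio of CDK2 to PARP1 was 5.47, 6.32 (interval 6.12 to 6.52) and 6.35 (interval 6.13 to 6.58). At chr1:560001-570000 the ratio was 6.31, 7.87 (interval 7.70 to 8.04) and 7.69 (interval 7.50 to 7.88). The neighbour chr1:570001-580000 had 1837, 3096 and 1422 CDK2 reads and 378, 450 and 385 PARP1 reads, and ratios of 6.01, 6.96 and 5.84. In these windows every CDK2 library stood above every PARP1 library, which follows in large part from how the set was chosen.

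At chr5:79940001-79950000, CDK2 gave 1306, 3005 and 1376 reads and PARP1 gave 468, 504 and 587. At chr5:134250001-134260000, CDK2 gave 1916, 3297 and 1911 reads and PARP1 gave 529, 679 and 690. At chr5:99380001-99390000, CDK2 gave 886, 1473 and 879 reads and PARP1 gave 414, 439 and 360. In the plain counts of these 3 windows the lowest CDK2 library lay above the highest PARP1 library, which the choice of the set makes likely.

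At chr2:149630001-149640000, CDK2 gave 433, 1089 and 474 reads and PARP1 gave 221, 194 and 273. At chr11:10530001-10540000, CDK2 gave 395, 877 and 372 reads and PARP1 gave 157, 168 and 239. At chr17:22020001-22030000, CDK2 gave 800, 1226 and 863 reads and PARP1 gave 482, 481 and 496. Scaled for depth, CDK2 was higher at 5 than at 0 min in all 9 windows and lower at 30 than at 5 min in 8 of them, the exception being chr17:22020001-22030000 with a ratio of 1.01. These differences between CDK2 libraries passed no call between 30 and 5 min, since each ratio lay between 0.5 and 2. The choice of the set asked for high CDK2 at 5 min, the 0 min library belongs to the rule, and some of the 9 windows are adjacent. The matching shares over all autosomal windows were not counted, so the order of the times is a description.

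**Figure D5:**
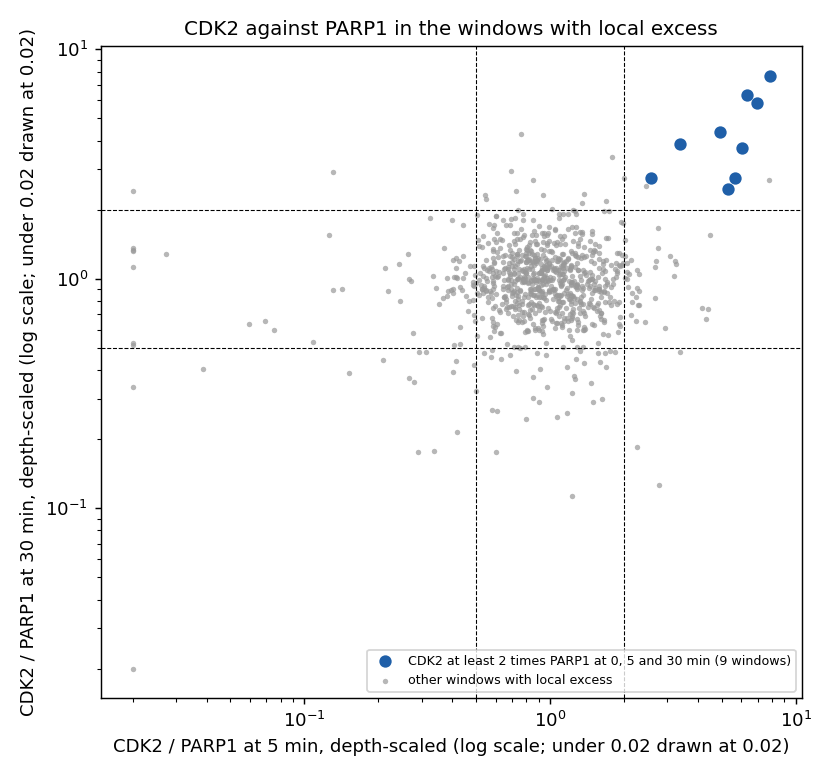
Depth-scaled ratio of CDK2 to PARP1 at 30 min (vertical) against that at 5 min (horizontal), both on log scales, for the 882 windows; dashed lines mark 0.5 and 2, and the 9 blue points had CDK2 at least 2 times PARP1 at 0, 5 and 30 min. Most grey points lie inside the dashed square, and the blue points lie at the upper right, as their choice requires.

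Calls against the 0 min libraries use the counts that chose the windows, so they are listed here as counts, and neither they nor the 0 min values given above are evidence of a change from 0 min. The background is the share over all autosomal windows. Between 5 and 0 min, 17 members were called higher in CDK2 (1.93%, background 5.88%) and 75 lower (8.50%, background 15.6%). In PARP1 0 were called higher (0.0%, background 0.804%) and 15 lower (1.70%, background 1.46%). Between 30 and 0 min, 26 were called higher in CDK2 (2.95%, background 5.26%) and 69 lower (7.82%, background 10.9%). In PARP1 2 were called higher (0.227%, background 0.343%) and 3 lower (0.340%, background 0.446%). At 0 min CDK2 was called higher than PARP1 in 10 members (1.13%, background 0.353%) and lower in 1 (0.113%, background 0.593%). After division by the dispersion 9 members were higher in CDK2 (background 0.00417%).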

How the data were processed

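Chromatin immunoprecipitation followed by sequencing was measured in T47D-MTVL cells with antibodies to CDK2 and PARP1 at 0, 5 and 30 min of 10 nM R5020. The authors deposited raw read counts in consecutive 10 kb windows of hg19 for 6 libraries, not normalized. The submitters' processing notes name Bowtie 1.0.0 as the aligner and hg19 (GRCh37) as the build. The treatment of duplicates and of reads with several matches is not given in the sources used.

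Each library was scaled by its total, as counts per 1000000 reads (CPM). The ratio of a window to its block is its count over the median of the compared windows of the same library and 1 Mb block. A long stretch is at least 100 consecutive windows with 0 reads in all 6 libraries. Windows within 2 Mb of one, otherwise within 1 Mb of a chromosome end, form classes of their own, and the rest are interior. Coordinates are 1-based. Ratios have exact 95% intervals given the summed counts, and shares of members are given without intervals. The dispersion of a comparison is the robust variance around the local share of reads over 20 windows on each side, and it also holds real differences between neighbours.

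Named were the 20 highest windows at 0 min at least 100 kb apart, 3 on each side of the limit, for the 4 comparisons without 0 min libraries the 3 called members in each direction farthest from 1, members called after the dispersion, the 3 longest runs, and the 5 lowest later members of the top 200; not all of these are printed. The isolated windows, blocks, the set of 9 windows and that of 12 were chosen after their values were seen. The members and lists were chosen with earlier results of these data known. Python 3.11.15, numpy 2.4.6, scipy 1.17.1 and pandas 2.3.3 were used, and edgeR 4.0.16 and DESeq2 1.42.0 in R 4.3.3 gave scaling factors only, since 1 library per antibody and time allows no model of replicate error. Other limits, count minimums, scalings and the dispersion were tried as alternatives. No genome or annotation of hg19 was used, so windows were not assigned to genes.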

Additional observations from a re-analysis of the deposited data

Results flagged for a closer look

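In 3 members (0.340%, against 0.42% of all autosomal windows) the depth-scaled ratio of 30 to 5 min was called in opposite directions by the 2 antibodies, which flagged them for a closer look. The difference between the antibodies was not tested. At chr21:10870001-10880000 the ratio was 0.332 in CDK2 and 2.34 in PARP1, from 100 and 23 CDK2 reads and 30 and 76 PARP1 reads at 5 and 30 min. At chr9:69950001-69960000 it was 0.371 in CDK2 and 2.02 in PARP1, from 66 and 17 CDK2 reads and 41 and 90 PARP1 reads. At chr21:14840001-14850000 it was 51.9 in CDK2 (interval 8.74 to 2106, with 1 read in the lower library) and 0.483 in PARP1, from 1 and 36 CDK2 reads and 82 and 43 PARP1 reads. The windows are thinly covered, and none was called in either antibody after division by the dispersion.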

How the results depend on the processing

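The count and behaviour of the members follow the limit on the ratio. At a limit of 1.5 there were 2784 members, of which 43.3% and 37.7% reached 2 in CDK2 at 5 and 30 min, 32.4% and 33.4% in PARP1 at 5 and 30 min, 18.2% in all 4, and 22.6% lay within 2 Mb of a stretch. At a limit of 3 there were 421 members, of which 81.5% reached 2 in all 4. With a mean of at least 50 reads required there were 448 members, with no minimum 2113, and with an own level of at least 2 times the autosomal median, chosen after seeing the data, 383. The share of members called in either direction was 20.2% for CDK2 and 1.70% for PARP1 at 30 over 5 min, and 14.7% and 9.41% for CDK2 over PARP1 at 5 and 30 min. In that order it was 11.6%, 0.223%, 9.15% and 5.58% with at least 50 reads, 11.2%, 0.0%, 9.14% and 4.44% with the own level, 45.1%, 8.05%, 37.1% and 24.9% at a fold of 1.5, and 0.227%, 0.0%, 0.794% and 0.907% with the dispersion. Without a minimum it was 4.54%, 24.9% and 15.9% for the last 3, and with the median of 20 windows on each side in place of the block it was 2.59% for PARP1 at 30 over 5 min. The causes were not tested. Scaling by TMM, by median of ratios or by the median window, leaving out the 20 highest windows, requiring the limit in each 0 min library, and leaving out CDK2 at 5 min moved no such value by over 1.5 times. No paired analysis was possible because each antibody and time has 1 library. Depth limits the ratios of thin windows, and 76 members held under 100 reads on average.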

Other observations

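Chromosome X was left out of the rule. By the same limit 24 of its 14785 compared windows (0.162%) were in local excess at 0 min, against 0.335% of autosomal windows, and 6 of the 24 reached 2 in all 4 later libraries. The highest was chrX:58560001-58570000 at 24.7 times its block median, next to a stretch without reads, with 2382, 2951 and 2695 CDK2 reads and 3093, 3255 and 4230 PARP1 reads at 0, 5 and 30 min. At chrX:125600001-125610000 CDK2 gave 616, 1219 and 550 reads and PARP1 gave 203, 226 and 129, so there too each CDK2 library lay above each PARP1 library.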
